A study of Homo sapiens with 3 samples.

Results

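Spindle assembly and cytokinesis factors build the bipolar microtubule spindle that separates chromosomes, and then divide the cell body between the daughters. A set of 10 such genes, TPX2, TACC3, ASPM, NUSAP1, DLGAP5, HMMR, CKAP2, PRC1, ECT2 and ANLN, were followed in HT29 cells, an established human colorectal cancer line, after treatment with a linderapyrone derivative. They were taken by gene symbol from the annotation of the array platform, which gave 12 probes of 24460 gene probes and 10 genes of 18639 with a named probe. DLGAP5 and ECT2 had 2 probes each and the other 8 genes had 1. The genes were picked for their place in cell division with the array values of these same comparisons in view, so their ratios are a description and carry no test.

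The series holds 3 arrays, 1 each for cells kept 24 h with the solvent DMSO as the control, or with 5 µM or 20 µM of the derivative. The sample titles write the doses in mM, whereas the treatment labels and descriptions write µM, which was used here. All 3 cultures were HT29 in low-glucose DMEM with serum, and the comparison was made to find genes expressed differently under the derivative. Nothing measured the spread between cultures, so no p-value is given and every difference below is one between single arrays.

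Most of these genes share a rhythm in the cell cycle. Their transcripts are known to be scarce in G1 and to build up towards G2 and mitosis, driven by the MuvB core complex with B-MYB and FOXM1, and held down in resting cells by the DREAM complex. Much of that control is known to pass through a short promoter element, the cell cycle genes homology region (CHR), often together with CCAAT boxes that bind the factor NF-Y. In colon epithelium such transcripts mark dividing cells.

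The median spot signal of the gene probes was 117 with DMSO, 107 with 5 µM and 110 with 20 µM, and between 85.6% and 86.2% of the gene probes were detected, that is, above the blank spots by the mean plus 2 SD. All 12 probes of the 10 genes were detected on all 3 arrays. Of the markers of colon epithelium, 11 had a probe and all 11 were detected on every array. CDH17 and CDX2 lay close to the threshold, however, at 88.6 and 92.6 in DMSO against a threshold of 82.5. The median ratio of the 11 at 20 µM was 0.035 on the log2 scale, with KRT20 at 0.92, LGALS4 at 0.54, VIL1 at -0.48 and KRT18 at -0.40, and their summed signal was 77310 with DMSO, 59844 with 5 µM and 61062 with 20 µM. Of 7 fibroblast markers 5 were detected on every array. These were DCN, PDGFRB, LUM, FAP and COL3A1, at 231, 148, 110, 109 and 84.6 with DMSO. COL1A1 and COL1A2 were not well above background, and the 7 summed to 798 to 844 over the arrays. Of 5 endothelial markers 3 were detected on every array, VWF, CDH5 and KDR, at 99.7, 85.3 and 131 with DMSO. PECAM1 and TEK were likewise not well above background. Of the 4 blood and immune markers with a probe 3 were detected on every array. These were LYZ, CD14, at 146 with DMSO, and CD3E, at 87.9, while PTPRC was not well above background. The 5 endothelial markers summed to 445 to 477. The 4 blood and immune markers with a probe summed to 16135 with DMSO, 12389 with 5 µM and 12486 with 20 µM, nearly all of it from lysozyme, LYZ. The part of these markers in the results was not tested.

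At 20 µM all 10 genes stood below DMSO, whereas at 5 µM the set was divided. The ratios are log2 ratios of background-corrected, quantile-normalized signal with an offset of 50 added, which understates the differences of dim genes. Against DMSO, 10 of 10 had a log2 ratio below 0 at 20 µM, where 47.1% of all 16062 detected genes did, and the median was -0.81 against 0.0071 over all genes. DLGAP5, HMMR, ANLN and TPX2 were at least 2-fold lower, 4 of 10, where 0.324% of all detected genes were, and 0 of 10 at least 2-fold higher, where 0.442% were. With the scanner's own background column taken off in place of the correction used here, PRC1 (0.39), ASPM (0.018), CKAP2 (0.037) and ANLN (0.035) stood above 0 and 6 of 10 below. At 5 µM 0 of 10 were at least 2-fold lower, against 0.00622% of 16075 genes, and 0 of 10 at least 2-fold higher, against 0.0498%. There 5 of 10 were below 0, against 47.9%, and the median was 0.020 against 0.0043. Between the doses, 10 of 10 were lower at 20 than at 5 µM, against 50.4% of 16036 genes, and TPX2, DLGAP5 and NUSAP1 were at least 2-fold lower, 3 of 10 against 0.0935%, while 0 of 10 were at least 2-fold higher, against 0.131%. With the background column 8 of 10 were lower at 20 than at 5 µM, and ANLN (0.40) and CKAP2 (0.15) were higher. Since the genes were chosen on these comparisons, nothing is read from the gap to the background. In RNA from a whole culture, fewer cells in mitosis and less transcript per cell cannot be told apart. The 5 µM and 20 µM ratios share the DMSO array.

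**Figure D1:**
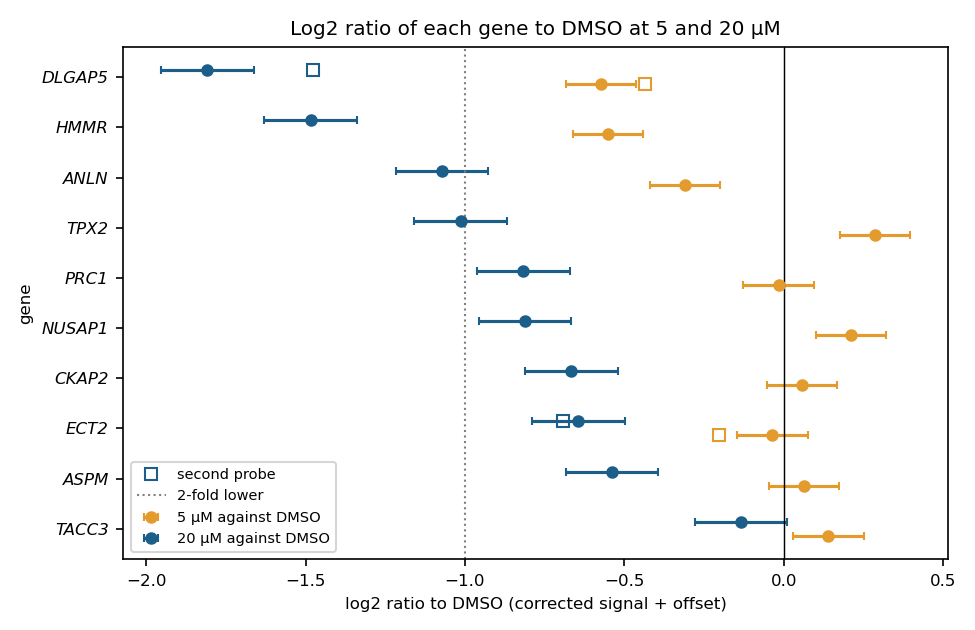
Log2 ratio to DMSO of each gene (vertical axis) at 5 µM (orange) and 20 µM (blue), on the scale of corrected signal plus offset, with 1 array per group. Bars are the technical SD of a single ratio, 0.11 at 5 µM and 0.15 at 20 µM, and open squares are second probes. DLGAP5 lies farthest left at both doses, and TPX2 is the farthest right at 5 µM yet passes 2-fold at 20 µM.

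A yardstick for technical error came from genes with 2 detected probes. Over 2007 such genes a single log2 ratio of 20 µM to DMSO had an SD of 0.15, over 2017 genes the ratio of 5 µM to DMSO had one of 0.11, and over 2003 genes the ratio between the doses had one of 0.12. These SDs cover the probes and not the cultures. They pool genes of every brightness. At 20 µM TACC3 lay within 1 such SD of 0. The other 9 of the 10 genes lay below -0.528, the 2.5th percentile of all 16062 detected genes. That count depended on the processing. With the detection threshold 2 times higher the percentile was -0.646, ASPM dropped out and ECT2, at -0.645, lay above it. In the authors' deposited table it was -0.869, and PRC1, CKAP2 and ECT2 also lay above it. With the background column it was -1.10, and TPX2 alone lay below it. Since the genes were chosen on this comparison, nothing is read from the count of 9. The medians of the 24 blocks of spots on the array lay between -0.011 and 0.025 for 20 µM against DMSO. For 5 µM against DMSO they lay between -0.023 and 0.039. The part of the position on the array in the ratios was not tested.

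The promoters of these genes are shown because the genes carry lower values together at 20 µM. For 9 of them, all but TPX2, RefSeq start sites of GRCh38.p14 gave 10 windows of 250 bases before to 50 after the start, ECT2 having 2 starts. The windows were searched on both strands for the CHR as TTTGAA or TTCGAA, for CCAAT, and for E2F sites as TTCCCGC or TTGGCGC. The CHR letters were found for 7 of 9 genes, or 77.8%, where 19.5% of 27305 genes with such a window had them. CCAAT was found for 6 of 9, or 66.7%, against 39.7%, and both together for the same 6 genes, against 7.85%. The E2F letters were found for NUSAP1 and ECT2, 2 of 9 against 2993 of 27305 genes. TTCGAA occurred in none of the members' windows. TACC3 and CKAP2 held none of the letters. A match is no proof of a site in use, and a window without one says only that these letters are not in it. These shares were not tested.

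The 150 bases before the start site are given for each, on the strand of the gene and from 5′ to 3′, with the first of the starts for ECT2. Capitals mark TTTGAA and CCAAT on either strand, so that the reverse matches read TTCAAA and ATTGG. The stretches are chr14:55191586-55191735 (DLGAP5, minus strand), chr5:163460482-163460631 (HMMR, plus strand), chr7:36389712-36389861 (ANLN, plus strand), chr15:90994536-90994685 (PRC1, minus strand), chr1:197146670-197146819 (ASPM, minus strand), chr3:172750576-172750725 (ECT2, plus strand), chr15:41332731-41332880 (NUSAP1, plus strand), chr4:1720481-1720630 (TACC3, plus strand) and chr13:52455838-52455987 (CKAP2, plus strand) of GRCh38.p14.
DLGAP5: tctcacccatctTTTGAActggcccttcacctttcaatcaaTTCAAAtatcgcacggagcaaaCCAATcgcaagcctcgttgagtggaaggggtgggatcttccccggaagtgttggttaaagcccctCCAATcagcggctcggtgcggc
HMMR: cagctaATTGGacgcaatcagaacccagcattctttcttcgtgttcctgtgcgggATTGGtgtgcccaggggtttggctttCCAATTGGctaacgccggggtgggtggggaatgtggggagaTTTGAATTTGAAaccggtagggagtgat
ANLN: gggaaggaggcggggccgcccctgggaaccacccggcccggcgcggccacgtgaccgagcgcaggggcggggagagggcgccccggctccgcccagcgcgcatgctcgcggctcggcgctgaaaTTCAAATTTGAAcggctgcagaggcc
PRC1: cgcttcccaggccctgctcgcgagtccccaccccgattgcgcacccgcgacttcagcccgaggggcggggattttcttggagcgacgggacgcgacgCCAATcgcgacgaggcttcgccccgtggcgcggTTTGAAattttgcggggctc
ASPM: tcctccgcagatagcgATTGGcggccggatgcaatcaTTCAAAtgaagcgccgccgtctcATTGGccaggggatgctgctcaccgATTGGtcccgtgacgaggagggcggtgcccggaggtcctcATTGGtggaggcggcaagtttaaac
ECT2: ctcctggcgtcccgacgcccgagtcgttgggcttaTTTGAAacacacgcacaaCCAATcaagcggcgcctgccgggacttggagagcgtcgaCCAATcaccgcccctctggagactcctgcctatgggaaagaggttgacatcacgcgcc
NUSAP1: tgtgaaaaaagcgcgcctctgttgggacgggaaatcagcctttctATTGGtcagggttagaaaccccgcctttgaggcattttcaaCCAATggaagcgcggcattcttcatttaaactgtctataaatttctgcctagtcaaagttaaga
TACC3: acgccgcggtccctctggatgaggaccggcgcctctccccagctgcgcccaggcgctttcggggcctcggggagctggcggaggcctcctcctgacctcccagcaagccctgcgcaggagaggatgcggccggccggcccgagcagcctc
CKAP2: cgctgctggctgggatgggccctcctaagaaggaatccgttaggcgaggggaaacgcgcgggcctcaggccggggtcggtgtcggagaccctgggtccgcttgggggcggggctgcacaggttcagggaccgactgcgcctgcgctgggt

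HMMR and ANLN each carry the CHR letters on adjoining positions just before the start, from -28 to -17 in HMMR and from -26 to -15 in ANLN, where in ANLN the first copy is on the other strand. PRC1 has its copy from -20 to -15, with a CCAAT box from -53 to -49. In DLGAP5 the copies shown begin at -138 and -109 and a further copy begins at 4 after the start. NUSAP1 has its copy after the start, from 14 to 19, with CCAAT boxes before it. ASPM has 4 CCAAT boxes, all in the reverse orientation. In HMMR the CCAAT boxes at -69 and -66 overlap, and in ECT2 an E2F match at -5 overlaps a CCAAT box at -2. The genes with the lowest and the highest ratios at 20 µM, DLGAP5 and TACC3, differ in the CHR letters. CKAP2, which has none either, stood at -0.67, and ASPM, which has them, at -0.54.

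**Figure D2:**
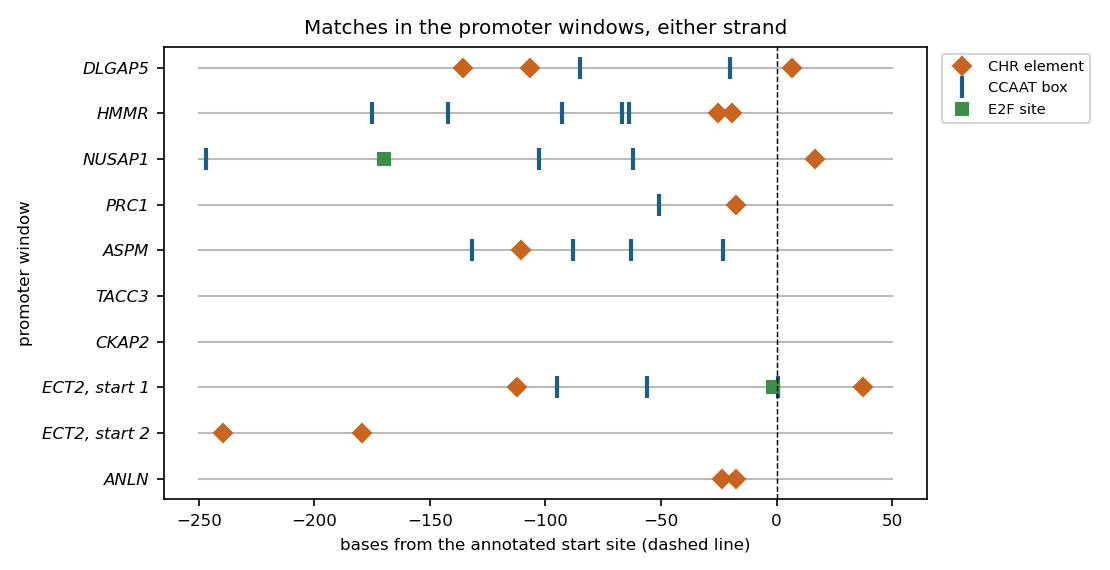
Positions of the CHR, CCAAT and E2F letters, either strand, in the promoter windows of 9 genes, as bases from the annotated start site; each row is a window. The CHR matches of HMMR, PRC1 and ANLN lie within 30 bases before the start, and the rows of TACC3 and CKAP2 are empty.

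TPX2 carries the signal of the small GTPase Ran from the chromosomes to the microtubules, which it nucleates, and it binds and activates the kinase Aurora A. Its spot signal was 1816 with DMSO, 1701 with 5 µM and 789.8 with 20 µM. Only the 20 µM array stood low. The log2 ratio to DMSO was 0.29 at 5 µM and -1.01 at 20 µM, and between the doses it was -1.30, or 2.46-fold lower, the 4th lowest of 16036 genes. In the authors' deposited table the ratios were 0.19, -1.12 and -1.31. They were 0.31, -2.56 and -2.87 with the background column.

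TACC3 links microtubules of the kinetochore fibres together with clathrin and the polymerase CKAP5. Its signal was 697 with DMSO, 614 with 5 µM and 566 with 20 µM. The ratio to DMSO was 0.14 at 5 µM and -0.13 at 20 µM, both close to the technical SD, and that between the doses was -0.27. It had the smallest difference of the 10 genes at 20 µM, a 1.10-fold lower value, and its ratio ranked 3019 from the lowest of 16062 genes. With the background column, however, it stood at -0.86 at 20 µM, lower than 7 of the other genes, and at -0.90 between the doses.

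ASPM gathers at the spindle poles, where it organises microtubule minus ends, and is known for its part in the growth of the brain. Its signal of 171 with DMSO, 155 with 5 µM and 116 with 20 µM was the nearest to the detection threshold, at 2.07, 1.95 and 1.44 times that of the array. The ratio to DMSO was 0.063 at 5 µM and -0.54 at 20 µM. For so dim a probe the offset weighs on the ratio, and in the authors' table, to which no offset was added here, the 20 µM ratio was -1.09, or 2.13-fold lower.

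NUSAP1 binds both microtubules and chromatin and stabilises the spindle around the chromosomes. The signal was 1065 with DMSO, 972 with 5 µM and 544 with 20 µM. As with TPX2, the 20 µM array alone stood low, with ratios to DMSO of 0.21 at 5 µM and -0.81 at 20 µM. Between the doses NUSAP1 was 2.03-fold lower at 20 µM.

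DLGAP5, also called HURP, stabilises the kinetochore fibres near the chromosomes. The probe that stood for the gene had a signal of 651 with DMSO, 359 with 5 µM and 181 with 20 µM. The second probe had 394, 246 and 142. On both probes the signal was lower at each step in dose. The log2 ratio to DMSO was -0.57 at 5 µM and -1.81 at 20 µM on the first probe, and -0.44 and -1.48 on the second. At 20 µM the first probe was 3.50-fold lower than in DMSO, and only 1 of 16062 genes had a lower ratio. The 20 µM ratio was -2.30, or 4.92-fold lower, in the authors' table, but -0.68 with the background column, where DLGAP5 was no longer 2-fold lower and TPX2, HMMR, TACC3 and ECT2 stood below it. The gap between the probes at 20 µM was 0.33, beside a technical SD of 0.15 for a single ratio. A difference between ratios has a larger SD than a single ratio. The second probe, with less signal, gave the ratio nearer 0.

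HMMR encodes a hyaluronan receptor that inside dividing cells binds the spindle and helps to place TPX2 at its poles. Its signal was 729 with DMSO, 406 with 5 µM and 246 with 20 µM. It too was lower at each step, with ratios of -0.55 at 5 µM and -1.48 at 20 µM. The ratio between the doses was -0.93, and -0.13 with the background column. HMMR and DLGAP5 had the 22nd and 18th lowest ratios of 16075 genes at 5 µM, and the gap of HMMR to DLGAP5 there was within the technical SD.

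CKAP2 promotes the nucleation and stability of spindle microtubules. The signal was 428 with DMSO, 357 with 5 µM and 248 with 20 µM. The ratio was 0.057 at 5 µM, within the technical SD of 0, and -0.67 at 20 µM.

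**Figure D3:**
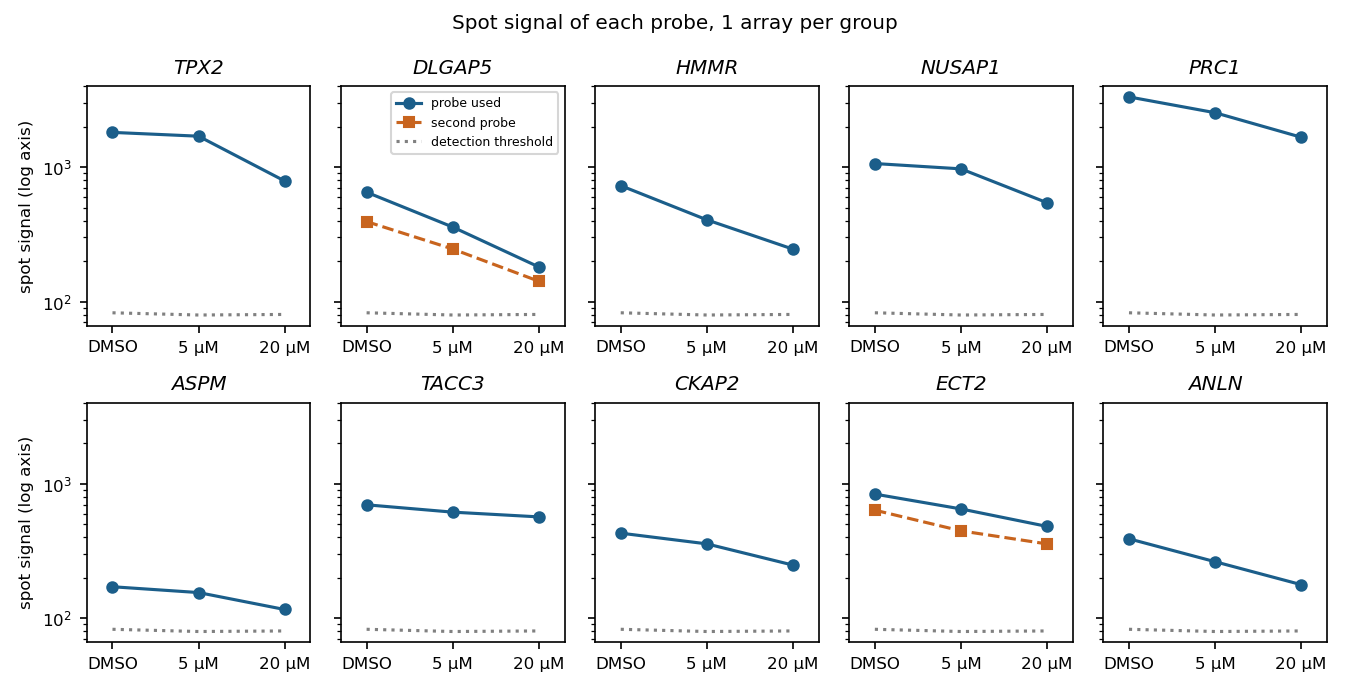
Spot signal of every probe of the 10 genes on a log axis against the group, 1 array each, before any correction. Blue circles are the probes used, orange squares the second probes of DLGAP5 and ECT2, and the dotted line is the detection threshold, 79.4 to 82.5. PRC1 has the brightest probe and ASPM the one nearest the threshold; the raw signals also hold differences in brightness between whole arrays.

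PRC1 bundles the antiparallel microtubules of the central spindle in anaphase and so marks the plane of division. It had the brightest probe of the set, at 3336 with DMSO, 2544 with 5 µM and 1672 with 20 µM. The raw values were lower at each step, but the 5 µM array as a whole was dimmer. The normalized signal, offset included, was 2901, 2869 and 1647. The ratio was therefore -0.016 at 5 µM and -0.82 at 20 µM. It was 1.21 and 0.39 with the background column.

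ECT2 is the exchange factor that switches on RhoA at the cell equator. The probe that stood for it had a signal of 837 with DMSO, 649 with 5 µM and 481 with 20 µM, and the second probe 635, 446 and 356. At 20 µM both gave nearly the same ratio, -0.64 and -0.69. At 5 µM they stood at -0.036 and -0.20, a gap of 0.17, beside a technical SD of 0.11 for a single ratio. With the background column the first probe stood at 0.54 at 5 µM and at -1.34 between the doses.

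ANLN encodes anillin, the scaffold that ties actin, myosin, septins and RhoA together in the contractile ring. Its signal was 389 with DMSO, 263 with 5 µM and 177 with 20 µM, lower at each step. The ratio was -0.31 at 5 µM and -1.07 at 20 µM, or 2.10-fold lower. In the authors' table it was 2.76-fold lower at 20 µM. Without background correction the 20 µM ratio was -0.96, less than 2-fold. With the background column it was 0.035, and that between the doses 0.40.

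The order of the ratios at 20 µM was thus DLGAP5, HMMR, ANLN, TPX2, PRC1, NUSAP1, CKAP2, ECT2, ASPM and TACC3, from the lowest up. It was another order with the background column, which placed TPX2, HMMR and TACC3 lowest. Some neighbours in it could not be separated. ANLN and TPX2, PRC1 and NUSAP1, and CKAP2, ECT2 and ASPM differed from each other by less than the technical SD of a single ratio, 0.15. A difference between ratios has a larger SD than that, so other neighbours may not be separable either. The 3 cytokinesis factors, PRC1, ECT2 and ANLN, spanned -1.07 to -0.64. This range lay within that of the other genes of the set, -1.81 to -0.13.

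The values at the lower dose set some of the genes apart. In DLGAP5, HMMR and ANLN the 5 µM log2 ratio was 31.7%, 37.1% and 28.9% of that at 20 µM. In the other 7 genes the 5 µM ratio, on the probes that stood for them, lay between -0.036 and 0.29. These ratios were at or above the level in DMSO within the technical SD. The grouping was made after the values were seen. The highest of the 3 genes at 5 µM, ANLN, lay 0.27 below the lowest of the other 7, ECT2, on these probes. The second probe of ECT2 stood at -0.20, outside the range of the 7 and closer to ANLN at -0.31. Over 8 ways of processing, all but that with the scanner's background column, the gap between the 3 genes and the other 7 was between 0.19 and 0.33. TPX2 stood 0.79 to 0.93 above DLGAP5. With the background column the gap was 0.19 and TPX2 stood 0.62 above DLGAP5. Scaling a whole array moves both sides of the gap nearly together, and the detection filters leave it at 0.27. Its steadiness is therefore no support for the grouping. The sign of the 7 genes at 5 µM did depend on the processing. With scaling to a common median, in place of quantile normalization, NUSAP1 stood at -0.0077, ASPM at -0.024, TACC3 at -0.060, CKAP2 at -0.15, ECT2 at -0.25 and PRC1 at -0.27, and TPX2 alone stayed above 0, at 0.030. In the authors' table CKAP2 stood at -0.028. Under that scaling the median of the 6525 brighter genes, those above 2 times the detection threshold on all 3 arrays, was -0.17 at 5 µM, against 0.0082 under quantile normalization.

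**Figure D4:**
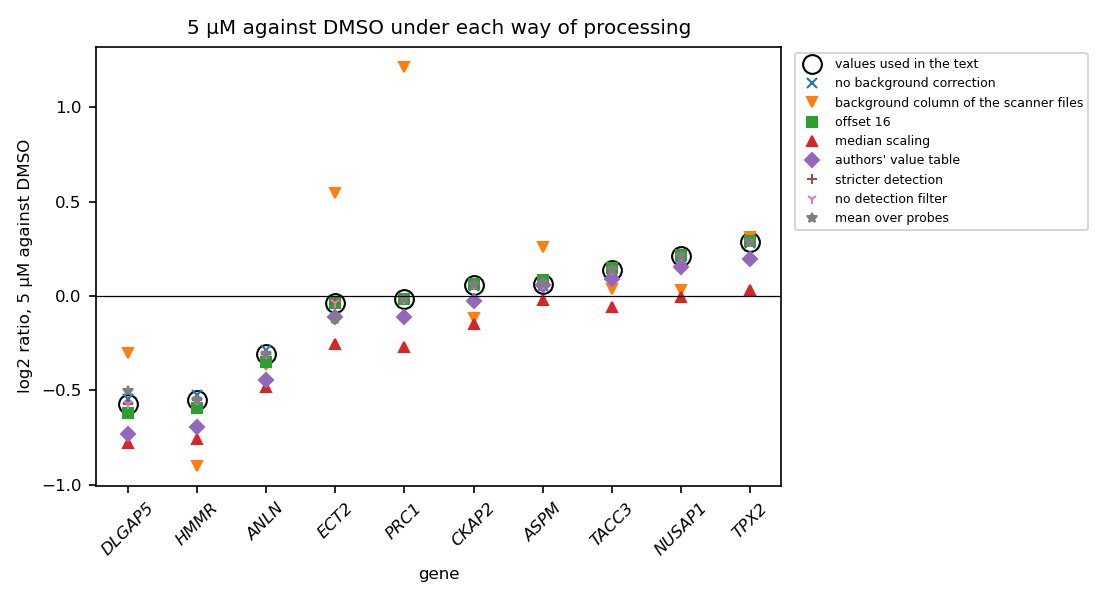
Log2 ratio of 5 µM to DMSO (vertical axis) for each gene under the values used in the text (open circles) and 8 other ways of processing. DLGAP5, HMMR and ANLN lie below 0 under all of them, while CKAP2, ASPM, TACC3 and NUSAP1 turn from above to below 0 under median scaling, and PRC1 reaches 1.21 with the background column.

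Among the other genes of the pathway, those that work with these factors in the spindle midzone and around the chromosomes also stood low at 20 µM. Beyond centralspindlin and the chromosomal passenger complex, the detected genes of the midzone list were KIF20A, KIF14, PLK1 and CDC14B. Of its 10 detected genes, 9 were below 0 and 2, BIRC5 and KIF20A, at least 2-fold lower. CDC14B stood above 0, at 0.075. Of all detected genes, 47.1% were below 0, 0.324% at least 2-fold lower and 0.442% at least 2-fold higher. These shares stand beside the counts of every list that follows. The list had a median of -0.69, which was -0.069 with the scanner's background column. Survivin, BIRC5, had a ratio of -1.17, the midzone kinesin KIF20A one of -1.07, and borealin, CDCA8, one of -0.87. RACGAP1, the centralspindlin subunit that recruits ECT2, stood at -0.85, from signals of 437 with DMSO, 339 with 5 µM and 225 with 20 µM. At 5 µM KIF20A stood at 0.30, beside 0.29 for TPX2; its signal was 293 with DMSO, 296 with 5 µM and 139 with 20 µM.

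Of 15 detected genes in the list of TPX2 partners and the Ran pathway, 14 were below 0 at 20 µM and 2 at least 2-fold lower. The list median stood at -0.72, and at 0.020 with the background column. Aurora A, AURKA, which TPX2 activates, had a signal of 941 with DMSO, 703 with 5 µM and 320.5 with 20 µM, and ratios of -0.096 at 5 µM and -1.44 at 20 µM. The minus-end kinesin KIFC1 stood at -1.01, the spindle protein KNSTRN at -0.93 and the kinesin KIF18A at -0.92.

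The machinery that these factors act on was taken as further lists. Of 15 detected genes of the gamma-tubulin ring and the augmin complex, 11 were below 0 and 0 were 2-fold apart. With 0.324% of all genes at least 2-fold lower and 0.442% higher, a count of 0 is near the share over all genes. Nothing is read from it, here or in the lists below. At 20 µM the median was -0.057, and -0.13 with the background column, under which it lay below those of the midzone genes and TPX2 partners. Gamma-tubulin, TUBG1, stood at -0.70, though its second probe gave -0.25. MZT1 stood at 0.38, HAUS7 at -0.35 and TUBGCP3 at -0.34. Of 11 plus-end and clathrin partners 6 were below 0 and 0 were 2-fold apart, and their median was -0.11, or -0.061 with the background column. Here GTSE1, itself a G2 and mitosis protein, stood at -0.72 and CKAP5, the partner of TACC3, at -0.60, with -0.53 on its second probe. CLIP1 and PIK3C2A both stood at 0.37, but the second probe of CLIP1 gave -0.0050.

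In the contractile ring list, 12 of 19 genes had a probe matched by symbol, and the others were not measured. Of the 12, 11 were detected on both the DMSO and the 20 µM array. Among these 11, 9 were below 0 and 0 were 2-fold apart. The list median stood at -0.15. ARHGAP11A, a RhoA regulator, stood at -0.43, RHOA, the target of ECT2, at -0.33, ROCK2 at -0.21 and the formin gene DIAPH3 at -0.19. Of 12 abscission genes 6 were below 0 and 0 were 2-fold apart. At 20 µM the median was -0.0021. CEP55, which marks the midbody, was the lowest at -0.52, CHMP4B stood at -0.29, CHMP4C at 0.26 and CHMP4A at 0.23.

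Relatives of the 10 genes in sequence gave 5 detected genes, 0 of them 2-fold apart, and their median was 0.0093. CKAP2L, a mitotic relative of CKAP2, stood at -0.46. TACC1 stood at -0.18, TACC2 at 0.0093, DLGAP4 at 0.048 and DLGAP3 at 0.082.

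In the list of MuvB, B-MYB, FOXM1 and E2F regulators, 16 of 19 detected genes were below 0 at 20 µM and 0 were 2-fold apart. Whether they act on these promoters here was not tested. The list median stood at -0.17. FOXM1 had a signal of 288 with DMSO, 212 with 5 µM and 156 with 20 µM, and ratios of -0.21 and -0.83. TFDP1, the partner of E2F factors, stood at -0.66 and LIN9, a MuvB subunit, at -0.44. CDKN1A, the inhibitor p21 that acts upstream of DREAM, stood above 0. Its signal was 569.7 with DMSO, 566 with 5 µM and 882 with 20 µM, which gave ratios of 0.33 and 0.84.

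The S phase list had 20 of 23 genes below 0 at 20 µM. Its median was -0.49, and -0.52 with the background column. Under that column it lay below the medians of the midzone list, -0.069, and the TPX2 partners, 0.020. Thymidylate synthase, TYMS, at -1.05 was at least 2-fold lower and the licensing factor CDC6, at 1.05, at least 2-fold higher, followed in size by the polymerase clamp PCNA at -0.82 and MCM6 at -0.76. Beside the 19.5% of all genes, CHR letters were found for 9 of 12 TPX2 partners, 6 of 9 midzone genes, 2 of 5 relatives, 6 of 17 regulators and 4 of 12 plus-end and clathrin partners with a window. They were found for 3 of 19 contractile ring genes, 3 of 20 S phase genes, 2 of 15 gamma-tubulin and augmin genes and 1 of 11 abscission genes. The share did not follow the list medians throughout, since the relatives, regulators and plus-end partners, with medians of 0.0093, -0.17 and -0.11, lay above 19.5% and the S phase genes, with -0.49, below it. The E2F letters, held by 2993 of 27305 genes, were found for 16 of 20 S phase genes, 9 of 15 gamma-tubulin and augmin genes, 8 of 17 regulators, 4 of 12 TPX2 partners, 3 of 11 abscission genes and 3 of 19 contractile ring genes. They were found for 1 of 5 relatives, 1 of 12 plus-end partners and 0 of 9 midzone genes.

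**Figure D5:**
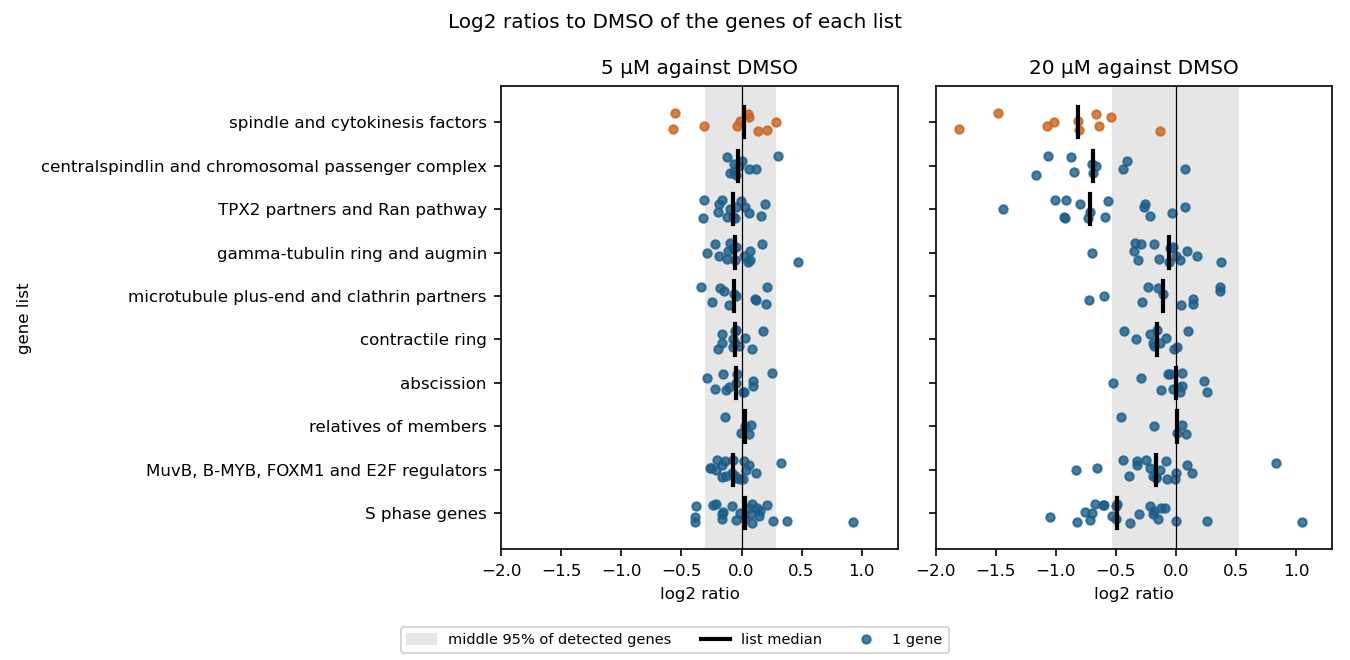
Log2 ratio to DMSO of each detected gene at 5 µM (left) and 20 µM (right) by gene list, with the list median as a black bar and the middle 95% of all detected genes in grey. At 20 µM the medians of the 10 genes (orange, -0.81), the midzone list (-0.69) and the TPX2 partners (-0.72) lie left of the grey band, that of abscission (-0.0021) near 0.

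The 6 other genes whose pattern over the 3 arrays was nearest to the median of the 10, by the Euclidean distance of centred log2 values among 15910 genes, were RACGAP1, H4C9, RGCC, PIMREG, CDK1 and NCAPG, at distances of 0.079 to 0.095. Their ratios to DMSO lay between -0.066 and 0.040 at 5 µM and between -0.85 and -0.74 at 20 µM. CDK1 is the kinase that starts mitosis and NCAPG a condensin subunit, while H4C9 is a histone gene.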

How the data were processed

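RNA of HT29 cells was measured on 1-colour Toray arrays, 3 in all. Per the file headers, the deposited scanner files hold each spot's median intensity on a linear scale, read at 3 gains; background was not taken off. The authors' value table, also deposited, holds an intensity per probe scaled to a median of 25 on each array. Signals were corrected with normexp in limma 3.58.1 (R 4.3.3) on all spots with an offset of 50, taken to log2 and quantile normalized over 24460 gene probes. A probe was detected above the mean plus 2 SD of 480 blank and negative control spots, trimmed by 5% at each end. The probe detected on most arrays, then the brightest, stood for a gene. Of the gene probes, 21707 had 1 gene symbol, 0 several and 2753 none. The number of arrays limits the precision.

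Per the file headers a background column exists; its intensity followed the spot signal, with Spearman correlations across 27456 spots of 0.962 to 0.967, so it served as an alternative only. Alternatives were this column, no correction, an offset of 16, median scaling, the authors' table with values below 1 set to 1, a threshold 2 times higher, no filter, and the mean over probes. The genes, lists and motifs were chosen with earlier results of these data known. Named were the members, up to 4 genes per list with the largest absolute log2 ratios at 20 µM against DMSO, detected relatives, and the 6 nearest genes. CDH17, CDX2, DCN, KIF14, PLK1, CDC14B and the markers not detected were named after their values were seen. The normalization was tested on simulated data. Python 3.11.15, numpy 2.4.6, pandas 2.3.3 and matplotlib 3.10.9 were used.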

Additional observations from a re-analysis of the deposited data

How the results depend on the processing

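No paired analysis was possible because each group had 1 array. With no replicates, a value was taken as moved when it shifted by more than the technical SD of a ratio, and a count when it changed by more than 1.5 times. The genes below DMSO at 20 µM numbered 10 of 10 under every alternative tried except the background column, with 6 of 10, and the stricter threshold, where ASPM dropped out and 9 of 9 were below. Their median of -0.81 became -0.999 in the authors' table and -0.61 with the background column, and the 4 genes at least 2-fold lower became 2 without background correction and 2 with the background column, under which ANLN turned to 0.035. At 5 µM median scaling took the median from 0.020 to -0.20 and the genes below 0 from 5 to 9. Between the doses the median of -0.78 became -1.04 in the authors' table and -0.48 with the background column, under which 8 of 10 were lower, and the 3 genes at least 2-fold lower became 6 in the authors' table. Of the list medians at 20 µM, the midzone list stood at -0.86 with an offset of 16. In the authors' table it stood at -1.07, the TPX2 partners at -0.95 and the fibroblast markers at 0.22. The plus-end list stood at 0.045 under the stricter threshold. With the background column the midzone list stood at -0.069, the TPX2 partners at 0.020, the contractile ring at 0.030, abscission at 0.19, the regulators at 0.0020 and the blood and immune markers at 0.023. Of all genes at 20 µM, 52 were at least 2-fold lower and 71 higher, against 33 and 60 without correction, 94 and 114 with an offset of 16, 74 and 52 under median scaling, 254 and 218 in the authors' table and 466 and 430 with the background column. The cause of these shifts was not tested. Signal over background limits ASPM most, at 1.44 times the threshold at 20 µM.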
